A study of Homo sapiens with 3 samples.

Results

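The genes described here are 37 genes of glycolysis and of the cellular response to low oxygen, read on 3 microarrays of the human lung adenocarcinoma line NCI-H1650. They were taken from a list of gene symbols, with earlier results of these data known: 22 glycolysis genes from glucose uptake to lactate, 14 targets of the hypoxia-inducible factors (HIF) outside glycolysis, and HIF1A, which encodes the oxygen-regulated HIF subunit itself. Of the 37 genes 35 had at least 1 probe set that the platform annotation assigns to a single gene, and 34 were measured, among 12341 measured genes of 19775 in all. A gene counted as measured when its signal exceeded a floor of 61.4 units, the 50th percentile of all values, on at least 1 array. CA9, a surface carbonic anhydrase, and SLC16A3, the lactate exporter MCT4, had no single-gene probe set in the annotation used and were not analysed here. ENO2, the neuronal enolase, stayed below the floor on all 3 arrays, at 5.9, 6.5 and 22.3 units.

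The study compared control cells with cells given 40 μM colossolactone H, a triterpenoid of the fungus Ganoderma colossum, for 12 h or for 24 h. Each group was 1 array, so no spread between replicates exists, no test is possible, and the number of arrays limits the precision of every difference. The labels state neither a vehicle for the control nor the time at which it was collected, and they name no genetic change. All cells came from 1 established line, kept in RPMI-1640 medium with fetal calf serum in a humidified incubator with added CO2; a low-oxygen arm is not among the groups. Values are linear MAS5 signal, a per-probe-set intensity, and differences are log2 of one array's signal over another's.

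Glycolysis splits glucose into pyruvate in the cytosol, and lactate dehydrogenase turns pyruvate into lactate while restoring the NAD+ that the pathway needs. When oxygen falls, prolyl hydroxylases of the EGLN family stop marking HIF subunits for destruction, and HIF then raises transcription of glucose transporters, most glycolytic enzymes and genes of angiogenesis, mitophagy and collagen modification. Many carcinoma lines express this programme in ordinary oxygen. HIF1A protein is controlled mainly by its stability, which an array does not read.

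The arrays were alike in scale, with trimmed means of 500.06 to 500.07 units and medians between 60.6 and 61.8. Of 10 epithelial or lung carcinoma markers 9 were measured. All 10 together had summed signals of 77165 units on the control array, 73335 at 12 h and 74297 at 24 h. Among them EPCAM, KRT8, KRT18 and CDH1 were far above the floor, the lung factor NKX2-1 was below it on all arrays, and NAPSA exceeded it only at 24 h. KRT19 was furthest from its control level, with differences of -0.54 at 12 h and -0.60 at 24 h. Of the 9 measured markers 7 lay below 0 and 1 above it at 12 h, and 6 below and 3 above at 24 h. Of 6 leukocyte and red cell markers 4 were on the arrays and 1, HBB, reached the floor, at 66.2 units in the control; PTPRC, CD3E and CD14 stayed below it. Of 6 fibroblast and endothelial markers 4 were measured, and their list had summed signals of 2257 units on the control array, 1903 at 12 h and 1544 at 24 h. The 3′ to 5′ signal ratio of the GAPDH control probe sets, a sign of RNA integrity, was 1.21, 1.25 and 1.24 on the 3 arrays. That of ACTB was 4.95, 5.38 and 6.55. The part of these shifts in the results below was not tested.

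Most members lay close to their control level, as did most measured genes. Within 0.3 of the control at 12 h lay 27 of the 34 measured members and 8938 of the 12341 measured genes. At 12 h none of the 34 measured members differed by 1.5-fold, a log2 difference of 0.58, in either direction with signals below the floor raised to it, where 3.37% of all measured genes were that much higher and 3.06% that much lower. At 24 h 3 members were 1.5-fold higher and none was that much lower, against 4.04% and 4.87% of all measured genes. The 3 were HK2, the inducible hexokinase, NDRG1, a stress-induced cytosolic protein, and VEGFA, the angiogenic growth factor. Between 12 h and 24 h no member differed by 1.5-fold, against a background of 1.45% higher and 1.9% lower. With 34 members, such counts are too small to set the members apart from all measured genes. RNA of whole cultures cannot tell a lower level per cell from fewer cells that express a gene. Of the 33 measured members other than ALDOC, whose control signal was below the floor and whose differences are lower bounds, none reached 2-fold in any comparison, as 0.438% of measured genes did upward and 0.429% downward at 12 h, and 0.567% and 0.624% at 24 h.

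The 20 measured glycolysis genes had a median log2 difference of 0.07 at 12 h, with 12 above and 8 below 0, and of 0.06 at 24 h, with 14 above and 6 below. The 13 measured hypoxia targets outside glycolysis had medians of 0.02 and 0.03, with 8 above and 5 below 0 at each time. The median over all measured genes was 0.00 at both times, and 50.2% and 48.8% of them lay above 0. Both times were compared with the same control array, so their values are not independent. The median size of a difference, whatever its sign, was 0.11 for the members and 0.17 for all measured genes at 12 h, and 0.11 and 0.20 at 24 h. Within 0.3 of the control at both times lay 14 of 20 glycolysis genes, 7 of 13 hypoxia targets and 57.7% of all measured genes. The share was 70% for the glycolysis genes and 53.8% for the hypoxia targets, the latter close to that of all genes. With 20 and 13 genes, such shares are too imprecise to set either list apart from all genes. Neither the shares nor the median sizes were compared with genes of like brightness.

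**Figure D1:**
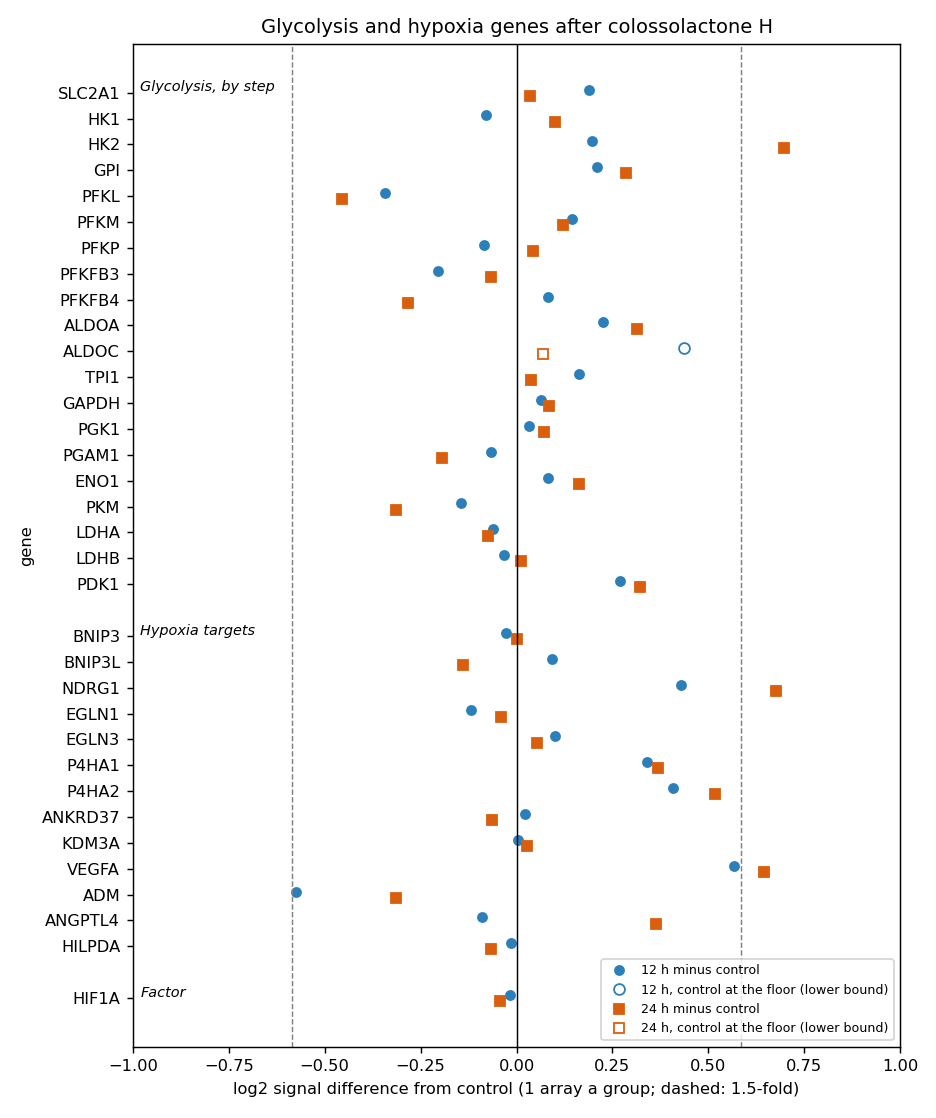
Log2 signal difference from the control array (x axis) for each of the 34 measured genes (y axis), glycolysis genes ordered by step above the hypoxia targets and HIF1A; circles are 12 h, squares 24 h, open symbols mark ALDOC, whose control signal was below the floor, and dashed lines mark 1.5-fold. Only HK2, NDRG1 and VEGFA at 24 h lie beyond a dashed line, while the enzymes from TPI1 to LDHB lie within 0.32 of 0.

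As a scale for disagreement within an array, 5636 genes could be read on at least 2 probe sets of their own that all 3 arrays placed above the floor. The median SD of the log2 difference between probe sets of one gene was 0.18 at 12 h and 0.21 at 24 h. Differences smaller than this are given below as values only.

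Glucose enters through SLC2A1 (Entrez gene 6513), the widespread transporter GLUT1. Its signal was 2075 units on the control array, 2365 at 12 h and 2128 at 24 h, differences of 0.19 and 0.04. A second, dim SLC2A1 probe set read 131.7, 100.6 and 150.1 units, so at 12 h the pair lay on opposite sides of the control.

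HK2 (Entrez gene 3099), the inducible hexokinase that traps glucose as its phosphate at the mitochondrial surface, stood at 1094 units on the control array, 1255 at 12 h and 1775 at 24 h. On this probe set, its brightest, the 24 h array was the high one, 1.62-fold above the control and 0.50 above 12 h. Its 24 h difference of 0.70 exceeded that of 97.6% of measured genes. The other two HK2 probe sets were dimmer and did not move alike. One read 110, 166.9 and 152.7 units, 0.60 above the control at 12 h, past 1.5-fold, and 0.47 at 24 h. The other read 196.3, 182.5 and 158.9, differences of -0.11 and -0.30. Both were lower at 24 h than at 12 h, by differences of -0.13 and -0.20, against the brightest probe set. At 24 h 2 of the 3 probe sets were above the control and 1 below it. The median of their differences was 0.47, short of 1.5-fold, so the count of HK2 among the higher genes rests on its brightest probe set. HK1, the housekeeping hexokinase, stood at 3092, 2924 and 3312 units, within 0.10 of the control at both times.

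HK2 is shown here with its promoter because, of the 20 measured glycolysis genes, it alone was past 1.5-fold at the floor used. It is set beside LDHA, whose window held the most matches among the members, and ANKRD37, a hypoxia target that stayed near its control level. HIF binds DNA at a short core, and ACGTG was searched on both strands in the 250 bases before each RefSeq transcription start on GRCh38.p14; overlapping matches, as in CACGTG, which is also the E-box of MYC and related factors, were 1 site. Capitals mark the matches, and each window is written 5′ to 3′ along its gene. HK2 lies on the plus strand at chr2:74833877-74834126, LDHA on the plus strand at chr11:18394313-18394562, and ANKRD37 on the plus strand at chr4:185396591-185396840.
HK2: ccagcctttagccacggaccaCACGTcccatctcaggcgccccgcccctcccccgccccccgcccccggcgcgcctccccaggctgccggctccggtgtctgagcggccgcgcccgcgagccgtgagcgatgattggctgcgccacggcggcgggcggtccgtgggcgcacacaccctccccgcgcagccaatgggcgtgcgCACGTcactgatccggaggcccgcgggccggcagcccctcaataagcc
LDHA: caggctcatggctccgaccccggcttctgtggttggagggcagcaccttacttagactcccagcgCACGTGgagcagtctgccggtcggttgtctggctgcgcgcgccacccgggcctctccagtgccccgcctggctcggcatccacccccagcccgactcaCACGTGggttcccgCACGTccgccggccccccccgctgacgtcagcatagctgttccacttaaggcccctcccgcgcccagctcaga
ANKRD37: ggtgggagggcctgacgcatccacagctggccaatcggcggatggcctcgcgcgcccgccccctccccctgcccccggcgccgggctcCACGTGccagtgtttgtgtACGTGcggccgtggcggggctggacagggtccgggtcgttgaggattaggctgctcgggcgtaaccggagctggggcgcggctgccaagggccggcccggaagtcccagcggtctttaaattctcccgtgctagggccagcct
The HK2 window held 2 sites, starting 229 and 48 bases before the transcription start, and a later HK2 start had 2 more in a window of its own. The LDHA window held 3, at 185, 87 and 73 bases, and the ANKRD37 window 2, at 162 and 143 bases. RefSeq windows were found for 33 of the 37 members, and 20 of them held the core in at least 1 window, against 21.7% of 27305 genes. Among genes with a single window 11 of 21 members and 18.4% of all genes held it. The variant GCGTG was found for 16 of the 33 members and 36.2% of all genes, and among genes with a single window for 7 of 21 members and 31.1% of all genes. The members were picked as glycolysis genes and known HIF targets, so their share with the HIF core is not an independent finding. A match is a description of letters and not of binding. LDHA and ANKRD37 lay within 0.08 of the control at both times. The promoters of BNIP3L, HILPDA, NDRG1 and VEGFA are not shown.

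GPI, which turns glucose phosphate into fructose phosphate, stood at 3066 units on the control array, 3545 at 12 h and 3739 at 24 h, differences of 0.21 and 0.29. Its order was the same as on the brightest HK2 probe set, with the control lowest and 24 h highest, at less than 1.5-fold.

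Phosphofructokinase commits sugar to glycolysis, and its 3 subunit genes are all members. PFKP, the platelet-type subunit, stood at 6239, 5887 and 6423 units, and PFKM, the muscle-type subunit, at 1416, 1565 and 1541; both lay within 0.15 of the control. PFKL, the liver-type subunit, read 496.3, 391.4 and 362.3 units, differences of -0.34 and -0.45. That probe set is of a type that may share sequence with other genes, and the second PFKL probe set read 261.5, 236.5 and 269.5, or 0.04 at 24 h. The lower PFKL signal at 24 h was thus seen on 1 of 2 probe sets.

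PFKFB3 and PFKFB4 make and remove fructose 2,6-bisphosphate, the strongest activator of phosphofructokinase, and both are well-known HIF targets. PFKFB3 stood at 534.7, 463.7 and 511 units, differences of -0.21 and -0.07. PFKFB4 stood at 407.4, 431.1 and 334.9 units, differences of 0.08 and -0.28. The one positive value among these 4 was 0.08.

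Aldolase splits the six-carbon sugar, and ALDOA, its main form outside liver and brain, showed the most even shift of the pathway. Its signal was 13016 units on the control array, 15212 at 12 h and 16188 at 24 h, and all 3 of its probe sets lay between 0.16 and 0.31 at 12 h and between 0.30 and 0.32 at 24 h. All 3 are of a type that may share sequence with other genes, and whether they share signal was not tested. ALDOC, the brain form and a HIF target, was below the floor in the control at 24.5 units, and read 83.1 at 12 h and 64.4 at 24 h. Against the floor it was at least 0.44 higher at 12 h and at least 0.07 at 24 h. With the floor lowered to the 25th percentile, 12.5 units, these became 1.76 and 1.39, past 1.5-fold.

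From triose phosphate down to lactate, 8 genes were measured. On the probe sets used, all 8 lay within 0.3 of the control at 12 h and 7 at 24 h, where PKM was at -0.31. TPI1, which interconverts the triose phosphates, stood at 9312, 10430 and 9556 units. GAPDH, the NAD+-dependent triose phosphate dehydrogenase, stood at 22760, 23805 and 24132, and its 3 gene probe sets lay between -0.09 and 0.08 at both times. The 3 GAPDH control probe sets of the array lay between 0.01 and 0.14. PGK1, the first ATP-forming kinase, stood at 14374, 14702 and 15108 units, differences of 0.03 and 0.07. Another PGK1 probe set read 4411, 5699 and 5178 units, or 0.37 at 12 h and 0.23 at 24 h, and the other two above the floor on all arrays lay within 0.03 of the control. The signals of GAPDH approach the highest on the arrays, 33362 to 34145 units, and whether the scale is compressed there was not tested.

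PGAM1, the phosphoglycerate mutase, stood at 18050, 17252 and 15772 units, with the 24 h array lowest at -0.19. ENO1, the main enolase, stood at 18941, 20056 and 21213, differences of 0.08 and 0.16, while its other two probe sets above the floor gave -0.04 and -0.03 at 24 h. PKM, pyruvate kinase of muscle and tumours, stood at 2094 units on the control array, 1895 at 12 h and 1685 at 24 h. The PKM differences were -0.14 at 12 h and -0.31 at 24 h. The second PKM probe set gave -0.35 and -0.22, so both were lower at both times. Probe sets of PKM do not separate its splice forms here.

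Lactate dehydrogenase showed no shift of either subunit. LDHA, the HIF-induced subunit, stood at 18385, 17617 and 17453 units, and LDHB at 18600, 18171 and 18748, all within 0.08 of the control. PDK1, which inhibits pyruvate dehydrogenase, stood at 781.7 units on the control array, 943 at 12 h and 977.4 at 24 h. The PDK1 differences were 0.27 and 0.32, and a pair of probe sets near the floor lay between -0.07 and 0.10 at both times. The -0.07 was set by the floor, as that probe set read 49.7 units at 12 h, and was -0.37 without it.

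HIF1A itself (Entrez gene 3091) stood at 14963, 14785 and 14514 units, differences of -0.02 and -0.04. EPAS1, the HIF2 alpha subunit, was at -0.25 and -0.14, and their partner ARNT at 0.07 and 0.11. HIF1AN, an asparagine hydroxylase that curbs HIF activity, was at 0.38 and 0.30, and VHL, which degrades hydroxylated HIF, at 0.21 and -0.09. These 4 genes come from the further list of hypoxia genes below and were singled out for their role.

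Several hypoxia targets commonly read as signs of HIF activity were near their control level. EGLN1 and EGLN3, HIF prolyl hydroxylases that HIF induces in a feedback loop, differed by -0.12 and -0.04 and by 0.10 and 0.05, the latter on signals of 64.1 to 68.7 units close to the floor. All 3 EGLN1 probe sets above the floor lay between -0.13 and -0.02. ANKRD37, a small ankyrin protein, stood at 281.9, 286.3 and 269.7 units. KDM3A, a histone demethylase, stood at 1549, 1553 and 1579. HILPDA, which keeps lipid droplets, stood at 738.9, 732 and 705. On these probe sets none of the 5 genes differed by more than 0.12 at either time, while a second HILPDA probe set, at 542.4, 539.7 and 620.4 units, was 0.19 higher at 24 h.

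The mitophagy receptors BNIP3 and BNIP3L, which clear mitochondria when oxygen is short, were also near 0. BNIP3 stood at 4013, 3935 and 4017 units. BNIP3L stood at 3615, 3854 and 3279 units, a difference of -0.14 at 24 h, where its second probe set gave 0.27.

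Other hypoxia targets were further from the control. VEGFA (Entrez gene 7422) read 3381 units on the control array, 5004 at 12 h and 5283 at 24 h. Both treated arrays were above the control, by 1.48-fold and 1.56-fold, and 0.08 apart. The other two VEGFA probe sets that stayed above the floor gave 0.27 and 0.66 at 12 h and 0.62 and 0.79 at 24 h, so all 3 were higher at both times. A further probe set was below the floor in the control, at 40.5 units, and above it on both treated arrays, at 100.8 and 78.2. The VEGFA difference exceeded that of 96.3% of measured genes at 12 h and 96.8% at 24 h.

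NDRG1 (Entrez gene 10397) read 3369 units on the control array, 4535 at 12 h and 5381 at 24 h. The 3 arrays were in the order of exposure, 1.35-fold above the control at 12 h and 1.6-fold at 24 h. It had a single probe set, so no second reading exists, and its 24 h difference of 0.68 exceeded that of 97.4% of measured genes.

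**Figure D2:**
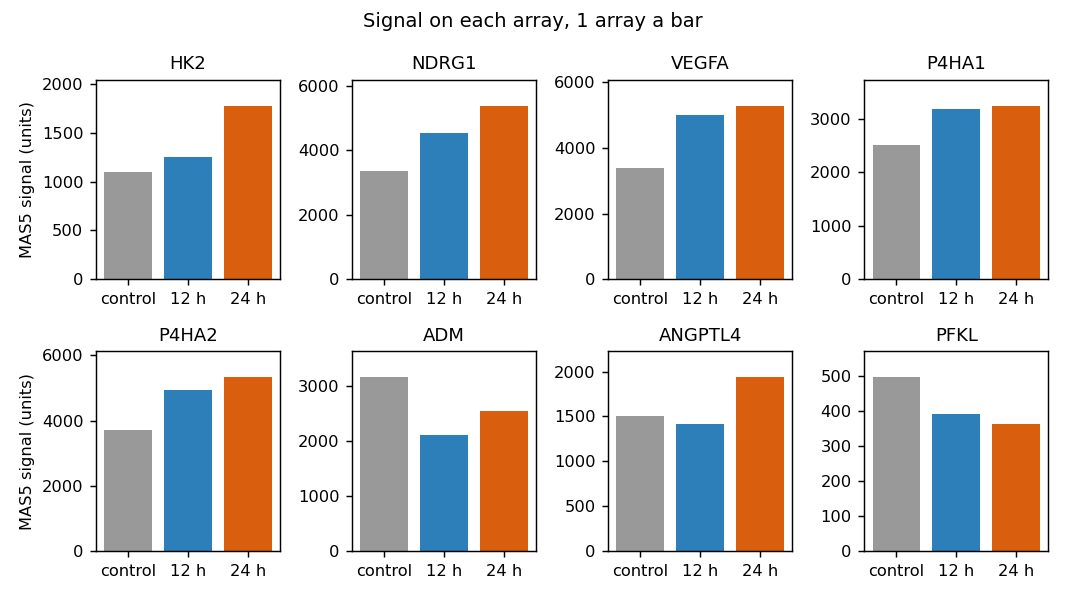
MAS5 signal in units (y axis, from 0) of 8 genes on the control, 12 h and 24 h arrays, 1 array a bar and so without error bars. VEGFA, NDRG1, P4HA1 and P4HA2 are higher on both treated arrays, HK2 and ANGPTL4 are high at 24 h, and ADM and PFKL are lower on both.

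The collagen prolyl hydroxylase subunits, which HIF induces and which let collagen fold, were higher without reaching 1.5-fold. P4HA1 stood at 2510 units on the control array, 3177 at 12 h and 3238 at 24 h, differences of 0.34 and 0.37. P4HA2 stood at 3719, 4937 and 5323 units, differences of 0.41 and 0.52. A dimmer P4HA2 probe set read 689.6, 674.8 and 592.9 units, or -0.22 at 24 h, against the direction of the first.

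Of the secreted products besides VEGFA, ADM, the vasodilator peptide adrenomedullin, was the lower one. It stood at 3154 units on the control array, 2117 at 12 h and 2536 at 24 h, on 1 probe set. It was 1.49-fold below the control at 12 h, just short of 1.5-fold, and its difference of -0.58 had only 3.28% of measured genes below it. At 24 h the difference was -0.31. ADM and VEGFA, a pair of secreted HIF targets, thus lay on opposite sides of the control at both times.

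ANGPTL4, a secreted inhibitor of lipoprotein lipase, stood at 1504 units on the control array, 1413 at 12 h and 1936 at 24 h. Its difference was -0.09 at 12 h and 0.36 at 24 h. The second ANGPTL4 probe set read 224.3, 289.5 and 336.1 units, 0.37 and 0.58. The 24 h array was the highest on both probe sets, and they differed in sign at 12 h.

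**Figure D3:**
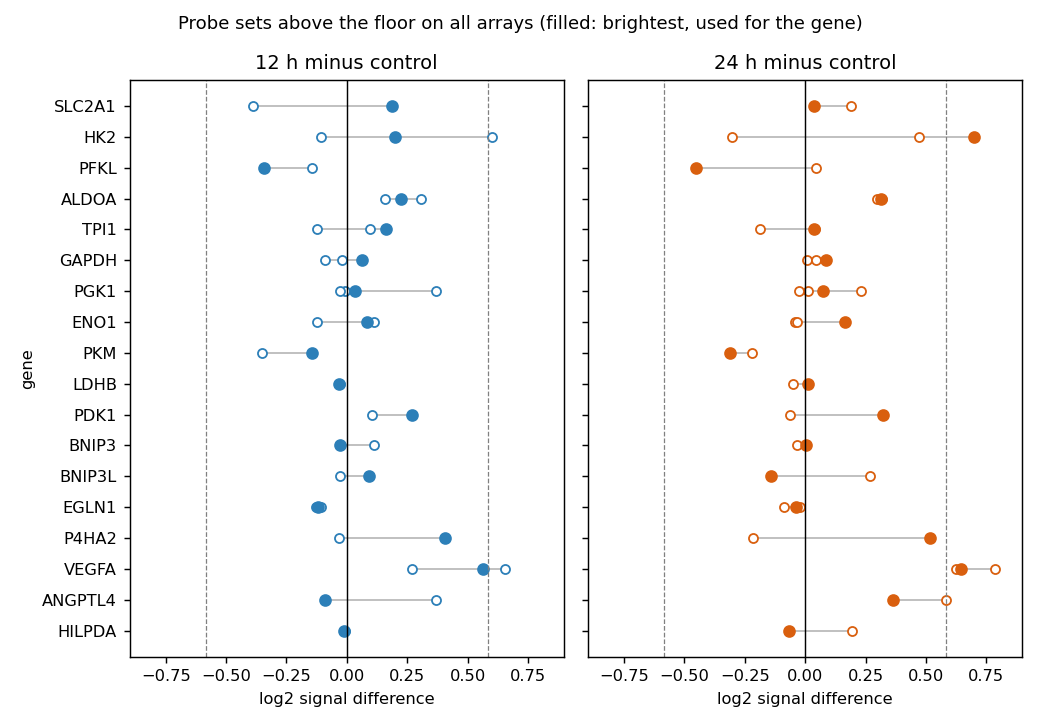
Log2 difference from the control (x axis) at 12 h and 24 h for every probe set above the floor on all arrays, for the 18 members with at least 2 such probe sets (y axis); filled points are the brightest probe set, used for the gene, and dashed lines mark 1.5-fold. The probe sets of VEGFA, ALDOA, PKM and EGLN1 lie on one side of 0 in both panels, and those of HK2 and P4HA2 lie on both sides.

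Over these 18 members and their 45 probe sets, the probe sets of 8 members shared a sign at 12 h and those of 7 at 24 h. Some of the others had values close to 0 throughout, as did LDHB, between -0.05 and 0.01.

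Further genes of the pathway were read from a list of 26, of which 16 were measured. At 12 h 1 was 1.5-fold higher and none lower, and at 24 h 2 were higher and 1 lower, with medians of 0.02 and -0.00. ENO3, the muscle enolase, stood at 86.8 units on the control array, 129.8 at 12 h and 166.1 at 24 h, differences of 0.58 and 0.94. SLC2A3, the high-affinity glucose transporter GLUT3, stood at 384.1, 284.4 and 211 units, or -0.43 and -0.86. HKDC1, a hexokinase family member, was at 0.21 and 0.69, and PDK2, a further pyruvate dehydrogenase kinase, at 0.68 and 0.08. None of these 4 exceeded 384.1 units on any array, and they are isoenzymes or transporters beside the forms described above. The mitochondrial pyruvate carrier genes MPC1 and MPC2 were at 0.22 and 0.26 at 12 h and at 0.23 and 0.20 at 24 h, and were named after their values were seen.

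Of 32 further hypoxia genes 30 were measured. The medians were 0.07 and 0.03, with 1 gene 1.5-fold higher at each time, none lower at 12 h and 3 lower at 24 h. STC2, a secreted stress glycoprotein, stood at 800.5 units on the control array, 1473 at 12 h and 1535 at 24 h, differences of 0.88 and 0.94. The 3 lower genes at 24 h were IGFBP3, which binds insulin-like growth factors, at -0.93, BHLHE40, a transcriptional repressor, at -0.71, and CITED2, which competes with HIF for its coactivator, at -0.70. BHLHE40 was named after its value was seen. MXI1, a repressor of the MYC network, was at 0.39 and 0.53. As among the members, genes of one hypoxia list lay on both sides of the control.

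**Figure D4:**
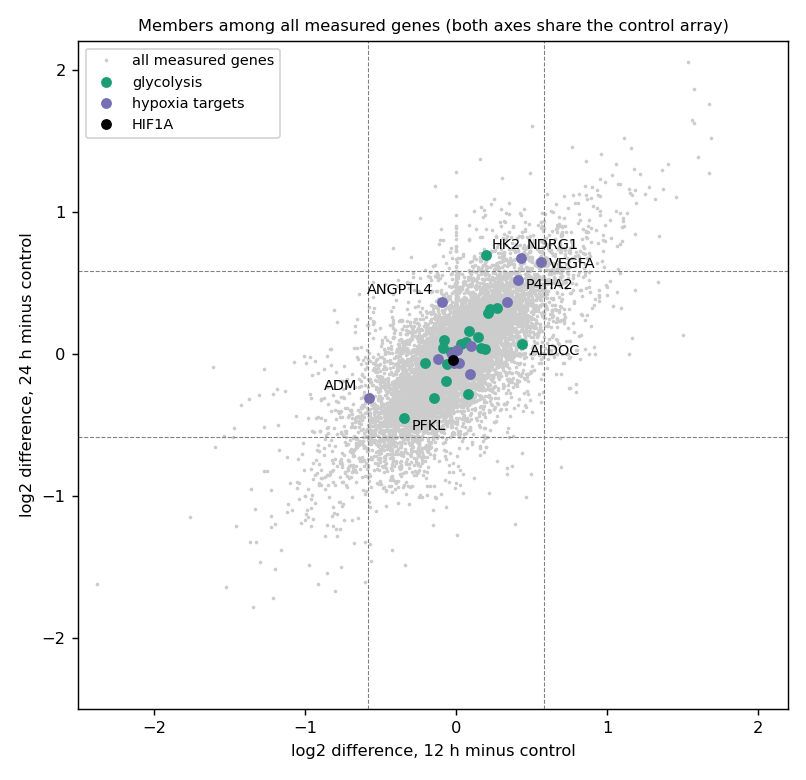
Log2 difference from the control at 12 h (x axis) and 24 h (y axis) for all measured genes (grey), glycolysis genes (green), hypoxia targets (purple) and HIF1A (black), with dashed lines at 1.5-fold; both axes share the control array, so the axes are not independent. Most members sit inside the dashed square, with HK2, NDRG1 and VEGFA above its upper edge and ADM at its left edge.

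Of the 34 measured members 19 were among the brightest 25% of measured genes, where fewer differences of 1.5-fold were found. Of these 3086 genes, 1.26% were 1.5-fold higher and 0.616% lower at 12 h, and 1.78% were higher and 1.78% lower at 24 h. Among these genes the 24 h differences of NDRG1 and VEGFA exceeded 98.9% and 98.6% of values, and the 12 h difference of ADM had 0.713% below it. ADM, VEGFA and NDRG1 thus lay near the edges of the distribution of bright genes. P4HA2, P4HA1, ALDOA and GPI, also in this group, had 24 h differences above 97.4%, 93.5%, 90.7% and 88.9% of values. On the lower side, the 24 h difference of PGAM1 had 18.9% below it. LDHA, GAPDH, HIF1A and BNIP3, named as examples from the same group, lay within 0.09 of the control at both times on the probe sets used.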

How the data were processed

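Total RNA (6 μg per array) was labelled with biotin and hybridised to Affymetrix arrays of 54675 probe sets, per the labels' protocols. The deposited values are linear signal intensity made by the authors with MAS5, per the submitters' processing notes; its version and settings are not given in the sources used here. Equal trimmed means (2% removed at each end) show a common scaling target, and nothing further was scaled. Genes came from the platform annotation of the probe sets: 41097 had 1 gene, 1801 several and 11777 none, and 41043 of the first matched a RefSeq gene by Entrez identifier. A gene took its brightest single-gene probe set by mean log2 signal, array control probe sets excluded, with signals below 61.4 raised to that floor. Differences are log2 ratios of 2 arrays, described at 1.5-fold and 2-fold, with no p-values. The procedure was tested on simulated data with planted changes, alike in every probe set of genes well above the floor. That simulation does not cover dim genes or probe sets that disagree. All members are named. From the further lists of glycolysis and of hypoxia genes the 4 genes furthest from the control by mean difference are named, and others as stated. The members and lists were chosen with earlier results of these data known. 8 alternatives covered scaling, floor and probe set choice, and 1 more, the median of the probe sets' log2 differences, was chosen after seeing the data, using limma 3.58.1 for quantile and cyclic loess normalization and Python 3.11.15 otherwise.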

Additional observations from a re-analysis of the deposited data

How the results depend on the processing

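HK2, NDRG1 and VEGFA stayed past 1.5-fold at 24 h with median centring, quantile normalization, cyclic loess, the floor at the 25th or 65th percentile, and no floor with a pseudocount of 1. With a gene's signal on each array set to the median over its probe sets, NDRG1 (0.68) and VEGFA (0.70) stayed past it and HK2 was at -0.30, which is the value of its 1 lower probe set. With the median of the probe sets' log2 differences instead, an alternative chosen after seeing the data, HK2 was at 0.47, NDRG1 at 0.68 and VEGFA at 0.63 at 24 h. With transcript-specific probe sets, 18 members were measured, neither NDRG1 nor VEGFA had one, and the 24 h count of higher members was 1, HK2. The 12 h count of higher members, 0 as set, was 1 with median centring (VEGFA at 0.59), 1 with the median of probe set differences (VEGFA at 0.61), 1 with the lower floor of 12.5 units, which is the 25th percentile, and 1 without a floor (ALDOC at 1.76 and 1.72). At that lower floor the 24 h count was 5, adding ALDOC at 1.39 and ENO2 at 0.84, and the count for 24 h against 12 h was 1, ENO2; with no floor ALDOC was at 1.36 at 24 h. The lower floor itself brings in these dim signals. The glycolysis median at 12 h was -0.036 with the median signal over probe sets and -0.044 with transcript-specific probe sets, and its cause was not tested. Of 108 values for list medians and counts under the alternatives, 99 stayed within 0.1 or within 1.5 times. No scaling moved the median of all measured genes by more than 0.03. No paired analysis was possible because each group held 1 array. Low signal limits ALDOC, ENO2, EGLN3 and the dim probe sets, and no processing choice replaces replicates.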
